A study of Mus musculus with 21 samples.

Results

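The genes described here are 10 transcripts that cultured or injured cells make after inflammatory or growth factor stimulation: Saa3, Cxcl5, Cxcl3, Ptgs2, Ptges, Areg, Tnfsf11, Fosl1, Grem1 and Spp1. They were taken by symbol from the 19096 genes of the deposited mouse heart matrix, and all 10 were also among the 15216 genes that passed the filter on low counts. The members were chosen by their measured expression, because they were high in one group of these libraries, hearts of chow-fed mice given renin. Their level in that group is therefore given as a description, without a test.

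The study paired obesity from a high-fat diet with hypertension from renin to model, in mice, heart failure in which the ejection fraction is kept, and RNA was sequenced from 21 hearts. All mice were male C57BL/6NJ, 8 to 10 weeks old at the start, and were randomized first to a diet for 10 weeks and then to a vector injected behind the eye. The chow control group (n = 4) had standard chow and no renin vector, the chow renin group (n = 6) had chow and AAV-Renin, an adeno-associated virus carrying renin, the high-fat control group (n = 6) had the D12492i diet with 60% of its energy from fat and no renin vector, and the high-fat renin group (n = 5) had both. Hearts were collected 6 weeks after injection and freeze clamped. The sample labels call the controls "novirus", whereas the series design gives them a null vector. The promoter and source species of the renin cassette were not given in the sources used here, and mouse Ren1 itself had reads in 4 of the 21 heart libraries, at most 5 in any of them.

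Serum amyloid A proteins, CXC chemokines, prostaglandin enzymes and epidermal growth factor (EGF) receptor ligands belong to the early secreted programme of stromal cells, epithelium and macrophages. Signals such as interleukin-1, tumour necrosis factor or growth factors switch these genes on through factors that include NF-kappaB, C/EBP, CREB and AP-1. In the heart, fibroblasts and macrophages are known sources of several of them after injury. In bulk tissue, fewer cells of a type and less RNA per cell cannot be told apart, and the same holds for more.

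Libraries held 18.7 to 29.3 M estimated reads assigned to genes (M, mega), from 18.7 to 21.4 M in chow control, 24.4 to 27.4 M in chow renin, 22.8 to 26.2 M in high-fat control and 23.2 to 29.3 M in high-fat renin. The high-fat control libraries were thus about as deep as the chow renin libraries. Some libraries stood apart within their groups. Chow renin replicates 1 and 2 had the lowest Areg and Tnfsf11 and the highest summed level of central neuron markers of their group, high-fat control replicates 5 and 6 had the highest Areg and Tnfsf11 of theirs, and high-fat renin replicate 1 did so in its group. Values without them are given beside the member and pathway results they touch. Calls on the marker lists are given with all libraries only.

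Because the 10 genes were high in the same libraries, the bases upstream of their start sites are shown for 4 of them, a chemokine, a prostaglandin enzyme and both low-level ligands. RefSeq windows of 250 bases (GRCm38.p6) were found for 8 of the 10 members, in 9 windows. Capitals mark matches, on either strand, to an NF-kappaB motif, to TATAAA, to TTGCNNAA (C/EBP) or to TGACGTCA (CRE). The windows lie at chr5:90785851-90786100 (+) for Cxcl3, chr1:150099781-150100030 (+) for Ptgs2, chr5:91139349-91139598 (+) for Areg and chr14:78308044-78308293 (-) for Tnfsf11, and each is printed 5′ to 3′ towards the gene.
Cxcl3: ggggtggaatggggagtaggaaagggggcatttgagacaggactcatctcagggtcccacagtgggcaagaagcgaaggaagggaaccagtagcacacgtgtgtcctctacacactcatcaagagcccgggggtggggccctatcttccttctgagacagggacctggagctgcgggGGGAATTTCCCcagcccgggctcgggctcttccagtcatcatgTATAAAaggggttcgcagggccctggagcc
Ptgs2: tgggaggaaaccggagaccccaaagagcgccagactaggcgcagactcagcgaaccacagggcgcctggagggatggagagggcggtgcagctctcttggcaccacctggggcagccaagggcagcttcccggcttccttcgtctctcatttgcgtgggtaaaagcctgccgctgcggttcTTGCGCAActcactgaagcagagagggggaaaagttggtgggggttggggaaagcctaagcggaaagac
Areg: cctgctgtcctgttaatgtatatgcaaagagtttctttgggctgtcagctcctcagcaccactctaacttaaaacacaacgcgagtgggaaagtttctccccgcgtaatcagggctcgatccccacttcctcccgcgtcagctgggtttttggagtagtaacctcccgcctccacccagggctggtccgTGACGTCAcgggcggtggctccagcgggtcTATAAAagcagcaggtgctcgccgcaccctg
Tnfsf11: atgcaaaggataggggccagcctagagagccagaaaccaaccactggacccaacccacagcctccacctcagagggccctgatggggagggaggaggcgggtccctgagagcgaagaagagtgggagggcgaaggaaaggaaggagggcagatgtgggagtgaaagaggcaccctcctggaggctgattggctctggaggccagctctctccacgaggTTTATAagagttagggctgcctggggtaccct
The NF-kappaB motif was in the Cxcl3 window and in 3.9% of all 32851 promoter windows. The CRE was in the Areg window and in 1.55% of all windows. TATAAA was in the windows of Cxcl3, Areg and Tnfsf11 and in one of Spp1, against 12.4% of all windows, and TTGCNNAA was in those of Saa3 and Ptgs2 and in one of Spp1, against 9.56%. The AP-1 motif TGANTCA was in none of the 9 windows and in 6.75% of all. The windows of Ptges and Grem1, not printed here, held none of these motifs. These matches describe letters, not bound sites. None of the motifs searched was in every window, and Cxcl5 and Fosl1 had no window to search.

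Every one of the 10 genes had a higher level in all 6 chow renin libraries than in any of the 15 other libraries. Levels are CPM, read counts set to a common library total, with library sizes scaled by edgeR's trimmed mean of M-values (TMM). Over all genes tested, 6.16% lay above all 15 other libraries in this way, and 10.4% lay above the 4 chow control libraries alone. Because the contrast chose the genes, nothing is read from these shares. The lowest chow renin library exceeded the highest of the 15 others by 2.61-fold to 3.68-fold for 7 genes, by 1.9-fold for Ptges, by 1.33-fold for Tnfsf11 and by 1.13-fold for Areg. The plot of levels by library shows a single high group for all 10 genes.

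**Figure D1:**
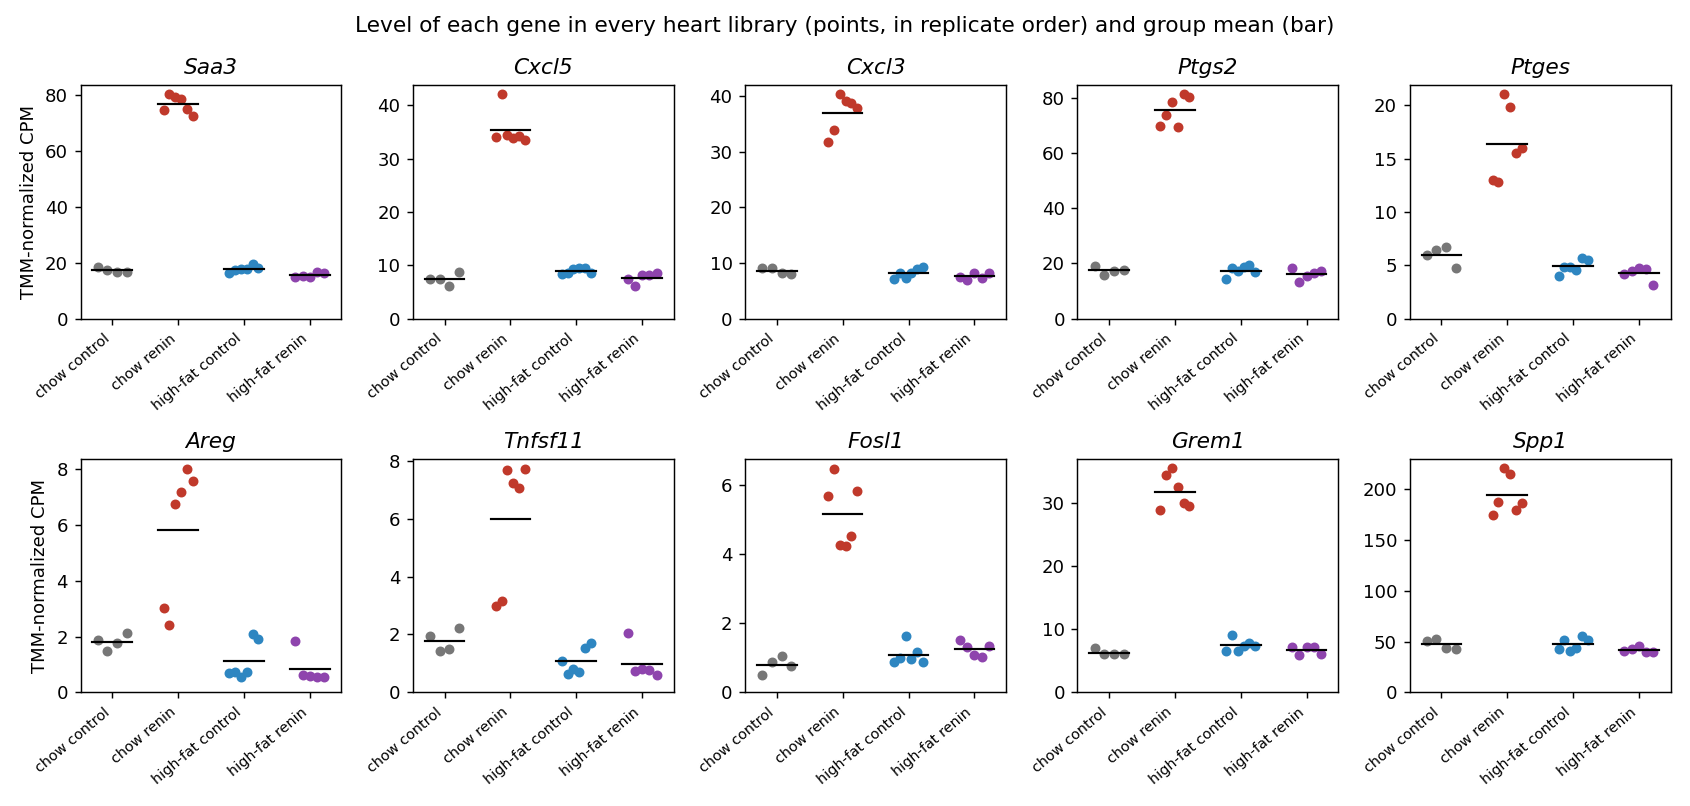
TMM-normalized CPM (linear axes from 0) of the 10 genes in each of the 21 heart libraries, by group, with points in replicate order and a bar at the group mean. All 6 chow renin points lie above the other 15 in every panel, and in the Areg and Tnfsf11 panels replicates 1 and 2 lie well below replicates 3 to 6.

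Saa3, an acute-phase apolipoprotein made by stromal cells and macrophages rather than liver, lies at chr7:46711998-46715700 (GRCm38, minus strand). Its level in the chow control libraries was 18.4, 17.5, 16.7 and 16.6 CPM. In chow renin it ran from 72.5 through a median of 76.9 to 80.3 CPM. High-fat control libraries ranged from 16.3 to 19.7 CPM with a median of 17.8, and high-fat renin libraries had 14.8, 15.1, 14.9, 16.8 and 16.3 CPM. The chow renin group stood alone, at a mean of 76.7 ± 3.06 CPM (SD, n = 6) against 17.3 ± 0.828 (SD, n = 4) in chow control, a ratio of means of 4.44. Its spread was narrow, with a coefficient of variation (CV) of 3.99% in chow renin, where genes of 50 to 300 CPM had a median CV of 5.41%.

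The chemokines Cxcl5 and Cxcl3, which draw neutrophils through the receptor CXCR2, lie near each other at chr5:90759360-90761624 and chr5:90786103-90789600. Cxcl5 had 7.37, 7.5, 6.18 and 8.68 CPM in chow control. In chow renin it ran from 33.4 through a median of 34.1 to 42 CPM, the highest being replicate 2. The ratio of means was 4.75, and the high-fat groups stayed between 6.18 and 9.53 CPM. Cxcl3 had 9.01, 9.05, 8.15 and 7.95 CPM in chow control and from 31.8 through a median of 38.3 to 40.3 CPM in chow renin, a ratio of 4.32. Its 2 lowest chow renin libraries were replicates 1 and 2, at 31.8 and 33.8 CPM, and its high-fat libraries lay between 6.92 and 9.3 CPM.

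Ptgs2 encodes the inducible cyclooxygenase that makes prostaglandin H2, and Ptges the inducible synthase that turns it into prostaglandin E2. Ptgs2 (chr1:150100031-150108227) had 19.1, 15.7, 17.3 and 17.8 CPM in chow control and from 69.6 through a median of 76.2 to 81.4 CPM in chow renin. The ratio of means was 4.33, while the high-fat libraries lay between 13.2 and 19.4 CPM. Ptges (chr2:30889471-30929863, minus strand) had 5.98, 6.39, 6.75 and 4.7 CPM in chow control and 13, 12.8, 21, 19.8, 15.5 and 16 CPM in chow renin replicates 1 to 6. Its groups did not overlap, but its ratio of means, 2.75 in CPM, was the lowest of the 10 on that scale (log2 1.82 in TPM, where that of Areg was lower) and its chow renin CV was 20.8%, above the 7.4% that is the median for genes of 10 to 50 CPM. Replicates 1 and 2 were again its lowest libraries of the group. The log2 ratio of Ptges was 1.46 with all 6 and 1.60 without these 2.

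Areg, an EGF receptor ligand, and Tnfsf11, the RANK ligand of bone resorption and lymph node formation, were low in abundance and uneven. Areg (chr5:91139599-91148432) had 1.89, 1.5, 1.77 and 2.13 CPM in chow control and 3.04, 2.41, 6.77, 7.2, 8.01 and 7.6 CPM in chow renin replicates 1 to 6. Replicates 1 and 2 lay just above the chow controls and replicates 3 to 6 far above them. Tnfsf11 (chr14:78277445-78308043, minus strand) had 1.94, 1.44, 1.51 and 2.23 CPM in chow control and 2.98, 3.17, 7.69, 7.24, 7.06 and 7.72 CPM in the same order in chow renin. The same 2 libraries were low. The CV within chow renin was 42% for Areg and 37.9% for Tnfsf11, against a median of 13.9% for genes of 2 to 10 CPM. Without replicates 1 and 2 the log2 ratio of means went from 1.68 to 2.02 for Areg and from 1.75 to 2.06 for Tnfsf11, still against all 4 chow controls.

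Both ligands also took separate levels inside the high-fat groups. Areg had 0.697, 0.725, 0.554, 0.719, 2.11 and 1.93 CPM in high-fat control replicates 1 to 6 and 1.85, 0.618, 0.574, 0.558 and 0.558 CPM in high-fat renin replicates 1 to 5. Tnfsf11 had 1.09, 0.64, 0.792, 0.719, 1.53 and 1.71 CPM and 2.06, 0.734, 0.79, 0.767 and 0.593 CPM in the same order. High-fat control replicates 5 and 6 and high-fat renin replicate 1 thus sat near the chow controls for both genes, and the others sat lower. As a description over the 21 libraries, the deviations of log2 CPM from the group means correlated between the pair at r = 0.93. Saa3 in the same libraries had no such step.

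**Figure D2:**
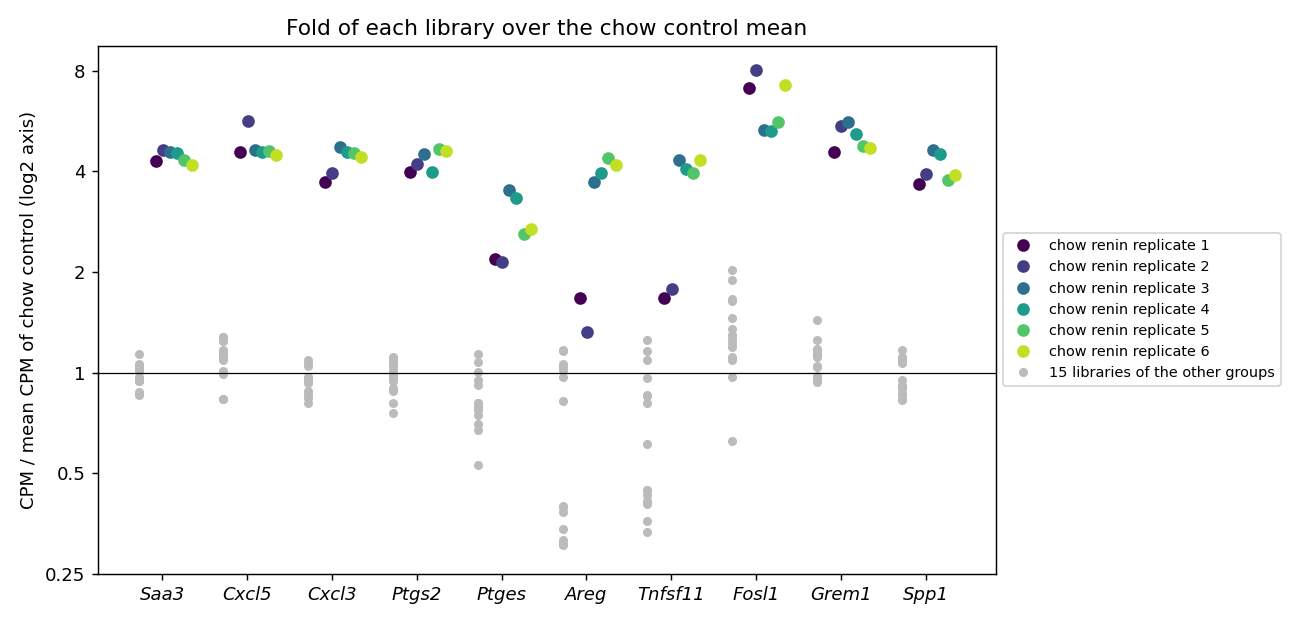
CPM of each library divided by the chow control mean of that gene (log2 axis), with the 6 chow renin libraries coloured by replicate and the 15 other libraries in grey. Replicates 1 and 2 sit at or above 3.67-fold for 7 genes and at 1.32-fold to 2.18-fold for Ptges, Areg and Tnfsf11.

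Fosl1, which encodes the AP-1 subunit Fra-1, lies at chr19:5447547-5455946. It had 0.498, 0.889, 1.04 and 0.776 CPM in chow control and from 4.23 through a median of 5.1 to 6.46 CPM in chow renin. The ratio of means was 6.45 in CPM, the highest of the 10 on that scale but not in TPM, where those of Grem1, Cxcl5, Saa3, Ptgs2 and Cxcl3 were higher, on 10 to 20 reads per chow control library and 107 to 177 per chow renin library. On other scales it was smaller: the log2 ratio was 2.69 in CPM, 2.16 in TPM, which corrects for transcript length, and 2.06 in the values of the deposited matrix, whose scaling was not given in the sources used here. Ccdc85b overlaps Fosl1 on the opposite strand with 16051 summed reads, so Fosl1 reads are uncertain where the genes overlap. Between 63.3% and 100% of the Fosl1 reads of a library went to its main transcript.

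Grem1, an antagonist of bone morphogenetic proteins (BMPs) made by stromal cells, lies at chr2:113746164-113758646 (minus strand). It had 7.02, 6.05, 6.02 and 6.16 CPM in chow control and from 28.9 through a median of 31.3 to 35.6 CPM in chow renin, a ratio of means of 5.05. Spp1, or osteopontin, a secreted phosphoprotein of macrophages, fibroblasts and bone, lies at chr5:104435118-104441050. It was the most abundant member by CPM, with 50.9, 52.9, 43.5 and 43.1 CPM in chow control and from 175 through a median of 187 to 221 CPM in chow renin. Its ratio of means was 4.08, and both genes' groups were far apart: the high-fat libraries lay between 5.91 and 9.04 CPM for Grem1 and between 39.5 and 55.6 CPM for Spp1.

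Levels between genes were compared per length, in TPM. In chow renin, Saa3 came first at 241 ± 11.6 TPM (SD, n = 6), then Spp1 at 138 to 176 TPM, Cxcl3 at 44 ± 4.29, Cxcl5 at 23.2 ± 1.83 and Ptgs2 at 15.2 ± 1.14. No library ranges overlapped among these 5 genes, nor with those below. Grem1 at 6.93 ± 0.64, Areg at 5.44 ± 2.26, Ptges at 5.04 ± 1.36 and Fosl1 at 4.93 ± 1.47 TPM followed, and the ranges of neighbours in this order overlapped. Tnfsf11 was lowest at 2.59 ± 0.982 TPM, and its libraries, from 1.32 to 3.48 TPM, overlapped those of Areg, Ptges and Fosl1.

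The comparison of renin with control on the high-fat diet sets no library in which the genes were high against another, although those libraries entered the filter, the scaling and the estimate of the spread. Of the 10 genes, 1 passed edgeR's quasi-likelihood test at an adjusted p of 0.05, and it was lower. Among all genes tested, 5.08% were called lower, 6.07% higher and 11.1% in either direction, so the count is near the background. With a clock gene score as covariate no gene was called on this diet, and every call named here for it is without that covariate. Saa3 fell, from 17.9 ± 1.1 CPM in the 6 high-fat controls to 15.6 ± 0.894 CPM in the 5 high-fat renin hearts, a log2 difference of -0.20 with an SE of 0.06 (adjusted p = 0.0246). This call was lost without high-fat control replicate 5 (adjusted p = 0.0583), and on dropping high-fat renin replicate 1 (0.0747) or 2 (0.0651). It was also lost without high-fat control replicates 5 and 6 and high-fat renin replicate 1 together (log2 -0.14, 0.236). Nor did it hold with only the high-fat groups in the fit (0.114) or with no filter on low counts (0.0631).

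The other 9 genes did not pass. Their log2 differences, high-fat renin minus high-fat control, were -0.22 for Cxcl5 (95% interval -0.40 to -0.05, adjusted p = 0.11), -0.20 for Spp1 (-0.37 to -0.04, 0.115), -0.16 for Grem1 (-0.34 to 0.02, 0.27) and -0.21 for Ptges (-0.49 to 0.08, 0.383). Those intervals are not adjusted for the number of genes. For Ptgs2 the difference was -0.11 (-0.27 to 0.06) and for Cxcl3 -0.10 (-0.26 to 0.06). The ligands were the least certain, at -0.44 for Areg (-1.31 to 0.42) and -0.14 for Tnfsf11 (-0.85 to 0.57), and Fosl1 alone was above 0, at 0.20 (-0.19 to 0.60). With 1 library left out, Areg ran from -0.95, on dropping high-fat renin replicate 1, to -0.17, without high-fat control replicate 5. Without the 3 libraries named above the differences were -0.20 for Cxcl5, -0.11 for Spp1, -0.17 for Grem1, -0.10 for Ptges, -0.13 for Ptgs2, -0.01 for Cxcl3, -0.22 for Areg, -0.16 for Tnfsf11 and 0.09 for Fosl1, and none passed. In all, 9 of 10 members were below 0 against 51.1% of all genes, with a median of -0.18 against -0.01. Whether the difference between diets exceeds chance was not tested for these genes, since it rests on the libraries that chose them.

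**Figure D3:**
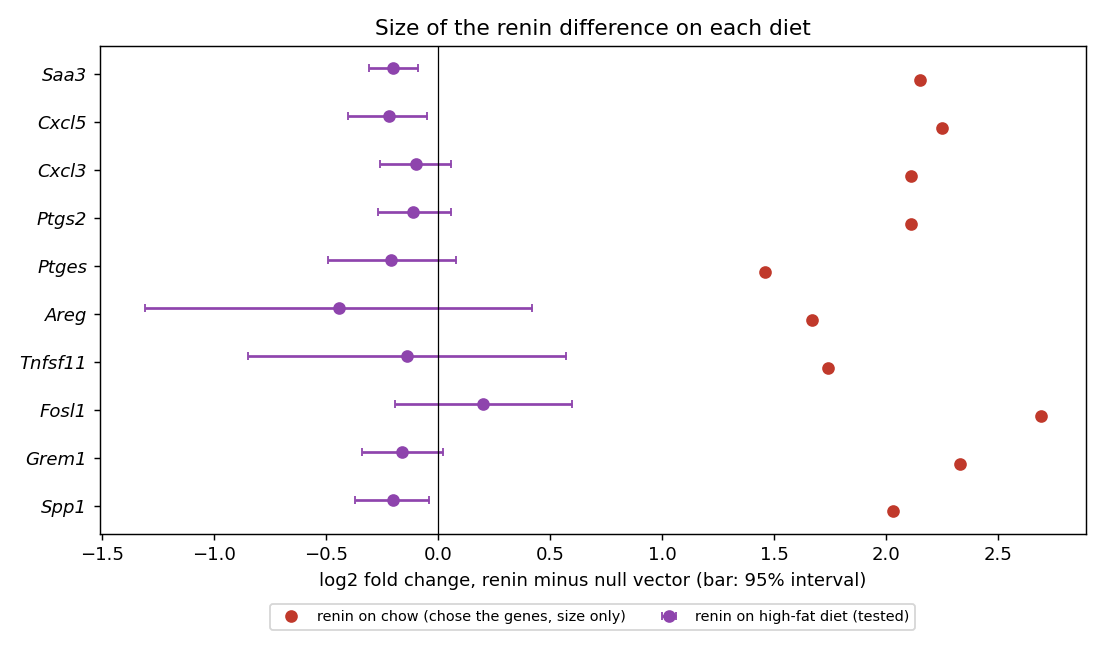
Log2 fold change, renin minus control, of the 10 genes on chow (red, size only, since it chose the genes) and on the high-fat diet (purple, with bars for the 95% interval). On chow the points lie between 1.46 and 2.69, and on the high-fat diet between -0.44 and 0.20.

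The other group differences share libraries with the choice of genes and are given without a test. Chow renin minus chow control was, in log2, 2.15 for Saa3, 2.25 for Cxcl5, 2.11 for Cxcl3, 2.11 for Ptgs2, 1.46 for Ptges, 1.67 for Areg, 1.74 for Tnfsf11, 2.69 for Fosl1, 2.33 for Grem1 and 2.03 for Spp1. The median was 2.11 against -0.03 for all genes. High-fat control minus chow control had a median of -0.00 over the 10 genes, with 5 of them below 0, and ranged from -0.73 for Tnfsf11 to 0.44 for Fosl1. High-fat renin minus chow renin had a median of -2.24, with all 10 below 0.

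Genes of the same pathways were tested in each contrast, with 10.1% of all genes called higher (1537) and 3.36% lower (511) in chow renin against chow control. Upper-quartile scaling gave 1625 higher and 264 lower. With the clock gene score as covariate, 7 calls named below for this contrast did not hold: Cxcl2 (log2 1.18, adjusted p = 0.0505), Nrg1 (0.57, 0.312), Abcc4 (0.22, 0.326), Ptgs1 (0.53, 0.259), Ptges2 (-0.28, 0.148), Csf1 (0.22, 0.365) and Fst, whose difference stayed at 1.2 with an SE of 0.47 (0.125). Of 6 tested neutrophil chemokine and receptor genes, 3 rose there and none fell. Cxcl1 rose from 6.13 ± 0.331 to 21.9 ± 2.1 CPM (log2 1.83, SE 0.10, adjusted p = 9.4e-12) and Cxcl2 from 0.697 ± 0.206 to 2.57 ± 0.267 CPM (log2 1.86, SE 0.30, adjusted p = 7.19e-05), in 6 against 4 libraries. Both lie between Cxcl3 and Areg on chromosome 5. The third, the chemokine scavenger Ackr1, stayed under 1 CPM, and its call was lost without chow control replicate 1 (adjusted p = 0.0579) or 4 (0.08), and without chow renin replicates 1 and 2 together (0.0818). With renin on the high-fat diet none of the 6 passed.

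The EGF family had 4 of 14 tested genes higher in chow renin and none lower. Ereg, or epiregulin, next to Areg, rose from 13 ± 1.29 to 55.5 ± 5.52 CPM (log2 2.10, SE 0.10, adjusted p = 6.13e-13). Errfi1, a feedback inhibitor of the EGF receptor, rose by 1.12 (adjusted p = 7.68e-08) and the ligand Nrg1 by 1.07 (0.00375). Egfr itself rose by 0.58 (0.0101), a call lost without chow control replicate 4 (0.0551). The chow renin libraries of Ereg ran from 46 to 61.9 CPM, a range without the step seen for Areg. On the high-fat diet 1 of the 14 rose and 1 fell, Errfi1 at -0.37 (0.0229), a call lost without high-fat control replicate 6 (0.0503), on dropping high-fat renin replicate 2 (0.067) or 5 (0.071), and without the 3 high-fat libraries that stood apart (0.085).

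Acute-phase genes and their inducers had 3 of 12 tested genes higher in chow renin and none lower. The iron-binding lipocalin Lcn2 rose from 4.54 ± 1.18 to 15 ± 2.87 CPM (log2 1.72, adjusted p = 1.18e-07), interleukin-6 (Il6) from 2.11 ± 0.11 to 8.06 ± 1.59 CPM (1.93, 1.5e-07) and its feedback gene Socs3 by 0.69 (0.000903). Saa1, the liver-type relative of Saa3, did not pass the filter and had at most 5 reads in a library. On the high-fat diet Stat3 rose by 0.29 (adjusted p = 0.0163) and none of the 12 fell. Its call was lost on dropping high-fat renin replicate 1 (0.076) or 5 (0.0591), with only the groups compared in the fit (0.061), and without the 3 high-fat libraries that stood apart (0.18, 0.239).

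Prostaglandin genes other than the members showed small changes in chow renin: of 20, 2 rose and 1 fell. The exporter Abcc4 rose by 0.36 (adjusted p = 0.0101), while the constitutive cyclooxygenase Ptgs1 at 0.61 (0.0371) and the synthase Ptges2 at -0.25 (0.0467) lost their calls when any of most single chow libraries was left out, with adjusted p up to 0.126 for Ptgs1, without chow control replicate 4, and 0.206 for Ptges2, without chow control replicate 2. Without chow renin replicates 1 and 2 they were at 0.0957 and 0.133, and with no filter on low counts at 0.0542 and 0.0714. Ptges2 also did not pass with DESeq2's size factors in edgeR (0.054), upper-quartile factors (0.0899) or after thinning to the smallest total (0.0608). On the high-fat diet 2 rose and 1 fell. Those that rose were Abcc4, by 0.31 (0.024), and the prostaglandin D synthase Ptgds, by 0.86 (0.0205), and neither passed without the 3 high-fat libraries (0.194 and 0.159). Abcc4 also did not pass with only the groups compared in the fit (0.0963), without high-fat control replicate 6 (0.0523), or on dropping high-fat renin replicate 1 (0.0671), 2 (0.0903) or 5 (0.0785). Ptgds did not pass on dropping high-fat renin replicate 1 (0.0637), 2 (0.0513) or 5 (0.0587).

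Other AP-1 genes, RANK ligand partners and BMP genes gave at most 2 calls a list in either contrast. None of the 12 AP-1 genes passed in chow renin against chow control, with a median log2 difference of -0.19, and Mafk rose by 0.45 on the high-fat diet (adjusted p = 0.019), a call that did not hold on dropping high-fat renin replicate 1 (0.0795) or 2 (0.065), or without the 3 high-fat libraries (0.204). Of 7 RANK ligand genes, 1, Csf1, rose in chow renin, by 0.38 (0.0141), and without chow control replicate 1, 2 or 4 it did not pass (0.0573, 0.0764 and 0.0759), nor with only the groups compared in the fit (0.0559). Csf1 also rose with renin on the high-fat diet, by 0.32 (0.0301), and the effects on the diets differed by -0.05 (interaction, 0.882). That call was lost without high-fat control replicate 4 (0.0581), 5 (0.0517) or 6 (0.0548), on dropping high-fat renin replicate 1 (0.0925) or 2 (0.0928), and without the 3 high-fat libraries (0.214). Of 20 BMP genes 1 rose there, the activin and BMP antagonist follistatin (Fst), by 1.19 (0.0269), which was not called without chow control replicate 1 (0.0646), 2 (0.115) or 4 (0.0886) or chow renin replicate 3 (0.0534). With renin on the high-fat diet 1 of the 20 rose, the follistatin-like Fstl3, by 0.88 (0.0096, and 0.0637 without the 3 high-fat libraries), and 1 fell, the BMP-binding Bmper, at -0.75 (0.0426). The Bmper call was lost when any of 7 single libraries was left out, with adjusted p from 0.0501, without chow control replicate 2, to 0.127, without high-fat renin replicate 5, with only the groups compared (0.129), with no filter on low counts (0.0704), under a replicate block (-0.67, 0.0604), without chow renin replicates 1 and 2 (0.0511), and without the 3 high-fat libraries (0.275). Of 9 osteopontin receptor and related genes, 2 rose, the hyaluronan receptor Cd44 by 1.12 (2.07e-06) and the integrin chain Itgb3 by 0.84 (0.00965). On the high-fat diet 3 of these 9 genes rose, where 6.07% of all genes were called higher: Cd44 by 0.56 (0.00752), Itga9 by 1.14 (0.0013) and Itga5 by 0.35 (0.00799). The Itga5 call was lost with only the groups compared in the fit (0.0606) and without the 3 high-fat libraries (0.21, 0.077).

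The list of genes raised in stimulated fibroblasts had the most calls, 13 of 16 tested higher in chow renin and none lower, with a median of 1.49. The list was drawn up with results of these libraries known and is no independent evidence. Ccl2, a monocyte chemokine, rose from 5.25 ± 1.26 to 21 ± 2.21 CPM (adjusted p = 4.39e-11), the cytokine Lif by 2.06 (SE 0.13, 6.97e-11), Il11 by 2.02 (SE 0.16, 3.22e-09) and the interleukin-33 receptor Il1rl1 by 1.95 (SE 0.17, 4.62e-08). On the high-fat diet 2 of the 16 rose. None of the genes on the 9 pathway lists was called in high-fat control against chow control, where edgeR called 10 of all genes (0.0657%) and DESeq2 117, and the unadjusted p was under 0.05 for 1668 of them.

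Among all genes that are not members, those most like the 10 in their pattern over the 21 libraries were Lif (mean Pearson r with the members 0.955), Ereg (0.954), Cxcl1 (0.95), Il11 (0.949), Il1rl1 (0.946), Idi1 (0.939), Cemip (0.938), the processed pseudogenes Gm15459 and Gm8730 (0.938 each) and Stac2 (0.937). Lif was at 11.8 CPM on average in chow control and 49.2 CPM in chow renin. These correlations rest on the same split of chow renin from the other groups and are a description.

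Markers of other cell types were read in the same libraries, since RNA from cells other than those of a plain heart would also appear there. All 9 central neuron markers rose in chow renin, their summed level being 53.5 to 62.5 CPM in chow control, 155 to 254 in chow renin, 64.9 to 88.2 in high-fat control and 53.2 to 88.7 in high-fat renin. Oligodendrocyte markers rose for 7 of 8 genes (30.2 to 35.1 CPM in chow control, 95.2 to 161 in chow renin) and astrocyte markers for 4 of 7 (24.6 to 27.5 and 80.4 to 138 CPM). The median log2 difference of the neuron list, 2.36, was of the size of the members' 2.11. Of 4 markers of microglia, the macrophages of the brain, none was called (4.75 to 8.62 CPM in chow control and 5.59 to 7.92 in chow renin). None of the 24 neuron, oligodendrocyte and astrocyte genes was at 0 throughout, and their part in the members' level was not tested.

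Within chow renin the members differed in how their levels went with the neuron sum. Replicates 1 to 6 had neuron sums of 245, 254, 170, 179, 155 and 164 CPM. Replicates 1 and 2, with the highest sums, had the lowest Cxcl3, Ptges, Areg and Tnfsf11, while Saa3 stayed between 72.5 and 80.3 CPM. Cxcl5 and Fosl1 were highest in replicate 2, at 42 and 6.46 CPM. Of 20 relations of the 10 genes with the neuron and proliferation sums over the 6 libraries, a single one could not pass adjustment: the smallest p that a two-sided exact permutation test allows, 0.00278, becomes 0.0556. No p is read from it. The neuron sums fall into separate sets of 2 and 4 libraries, so no pooled coefficient is given, and the sets are too small for one of their own.

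**Figure D4:**
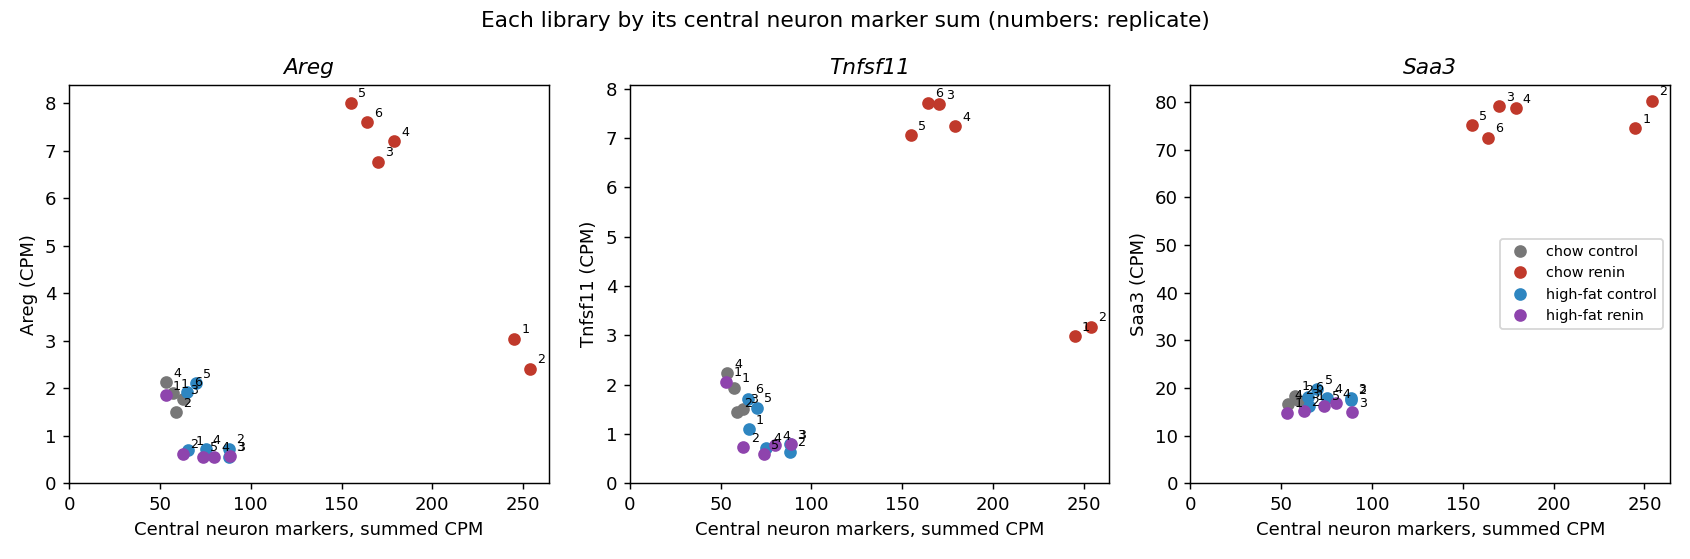
CPM of Areg, Tnfsf11 and Saa3 against the summed CPM of 9 central neuron markers in each library, coloured by group and numbered by replicate (linear axes from 0). Chow renin replicates 1 and 2, at 245 and 254 CPM of neuron markers, have the lowest Areg and Tnfsf11 of their group but Saa3 levels like those of replicates 3 to 6.

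Proliferation genes rose on both diets, 10 of 12 in chow renin against chow control and 9 of 12 with renin on the high-fat diet. Their summed level was 37.9 to 41.7 CPM in chow control and 74.3 to 94.7 in chow renin. In high-fat control it was 34.9 to 48.9 CPM, and in high-fat renin replicates 1 to 5 it was 86.9, 79.8, 47.8, 39.6 and 80.4 CPM, so replicates 3 and 4 lay within the high-fat control range. High-fat renin replicates 1, 2 and 5 therefore had proliferation sums within the chow renin range. All 10 genes were below their own chow renin ranges in these libraries, with Saa3 at 14.8, 15.1 and 16.3 CPM against 72.5 or more. The gap was narrowest in replicate 1 for Areg, at 1.85 against a lowest chow renin value of 2.41 CPM, and for Tnfsf11, at 2.06 against 2.98 CPM. Of the embryonic list, 3 of 9 genes were tested, Hmga2, Lin28b and Igf2bp3, and only Hmga2 rose in chow renin. The list summed to 2.8 to 3.54 CPM in chow control and 7.12 to 10.5 in chow renin, where Hmga2 alone had 5.85 to 9.65 CPM. In high-fat control the sum was 2.32 to 3.01 CPM and in high-fat renin 1.85 to 3.16 CPM. Pou5f1, Zfp42 and Lin28a had reads in at most 1 library, and Nanog had at most 8 reads in a library.

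None of the tested markers of blood or heart cells rose in chow renin against chow control. The 9 neutrophil genes summed to 1.75 to 3.69 CPM in chow control and 1.9 to 3.18 in chow renin, with 0 of 3 tested genes called, and Ly6g and Elane were at 0 in all 21 libraries. Of 9 macrophage genes none rose and Mrc1 fell, with sums of 144 to 218 and 131 to 203 CPM. Heart fibroblast genes gave 0 calls of 6 (1118 to 2214 and 1040 to 1641 CPM), endothelium 0 of 4 and lymphocytes 0 of 6 tested. Cardiomyocyte genes gave 2 of 7 lower, Actc1 and Myh6, and mesothelium 1 of 5 lower, Wt1, and no atrial gene of 4 passed.

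Markers of organs other than the brain gave no calls apart from 1 bone cell gene. Liver genes summed to 2.08 to 8.36 CPM in chow control and 0.831 to 19 in chow renin (0 of 2 tested called), kidney genes to at most 1.12 CPM in either group (0 of 1), and lung genes to at most 3.15 CPM with none passing the filter. Epithelial genes summed to 5.43 to 8.48 and 6.91 to 9.51 CPM (0 of 5), and adipose (0 of 3) and skeletal muscle genes (0 of 2) gave no calls. Of the bone cell list Runx2 rose among 4 tested, and osteocalcin (Bglap) had at most 1 read in a library. Whether RNA from outside the heart, or from cells not on these lists, adds to the 10 genes was not tested.

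**Figure D5:**
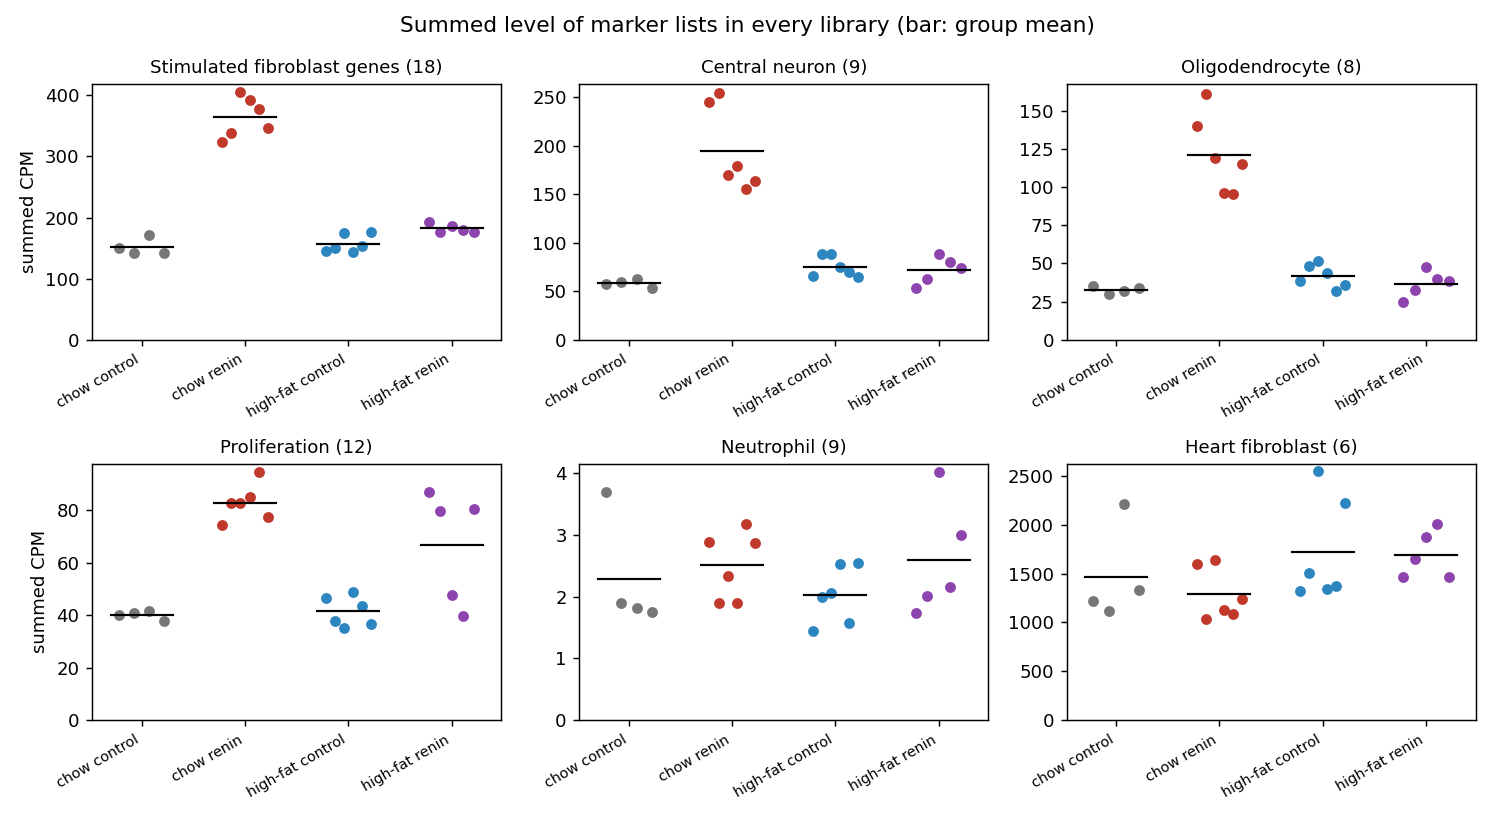
Summed CPM of 6 gene lists in each of the 21 libraries by group, with the number of genes in each list in brackets and a bar at the group mean (linear axes from 0). The stimulated fibroblast, neuron and oligodendrocyte sums are highest in chow renin (324 to 406, 155 to 254 and 95.2 to 161 CPM), proliferation is also high in 3 high-fat renin libraries, and neutrophil sums stay at or under 4.02 CPM.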

How the data were processed

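RNA from 21 mouse hearts was sequenced and quantified by the authors with Salmon 1.10.2, per the submitters' processing notes, which also name DESeq2 1.40.2 and the build GRCm38. Per the file headers, each deposited library table gives estimated counts and TPM per transcript. Its estimated counts (whole counts had been expected) were summed to genes by GENCODE M21 (98% of 119215 transcripts matched) and rounded, and TPM were summed the same way. The deposited gene matrix holds a normalized signal made by the authors, with a scaling not given in the sources used here. It also holds the authors' log2 fold changes and adjusted p-values of their own comparison, per the file headers, which were not used. Each of its 21 columns was assigned to a library by animal code and was closest to that library.

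The main test was edgeR 4.0.16 (R 4.3.3, TMM, robust quasi-likelihood fit, 1 term per group, all 21 libraries) on 15216 genes, with Benjamini-Hochberg adjusted p-values at 0.05. DESeq2 1.42.0 was an alternative. P-values set a group difference against the spread between animals within groups, estimated from all 21 libraries together. Tested on simulated data for high-fat renin against high-fat control, 93.5% of 200 changed genes among 15008 were recovered (87.8% at a log2 size of 1, 99% at 2), with 3.11% false calls. The simulated counts were independent, with the spread of the fit itself and no clock or subgroup differences between libraries. The members' log2 differences in this contrast, -0.44 to 0.20, were smaller than those simulated, so these rates do not describe the calls above.

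The members, gene lists and tests were chosen with earlier results of these data known. Named were all members, at most 4 genes of each of the 9 pathway lists (smallest adjusted p on chow, then on the high-fat diet), and the 10 genes most correlated with the members. One gene was left out of the lists and is not reported here. Same-numbered libraries of different groups deviated together at a median r of 0.0775 (28 pairs, -0.226 to 0.421, 11 over 0.1), and other-numbered ones at -0.0248 (136 pairs, 21 over 0.1). Same-numbered pairs thus exceeded 0.1 more often, but not throughout. The main fit did not pair mice by number, and a replicate block was run as an alternative.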

Additional observations from a re-analysis of the deposited data

Results flagged for a closer look

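In 60 groups of 4 to 6 library values, of the 10 genes and of 5 list sums, 4 held a value far from the rest of its group by Dixon's test, where chance gives about 1 in 20. Cxcl5 was at 42 CPM in chow renin replicate 2. Areg and Tnfsf11 were at 1.85 and 2.06 CPM in high-fat renin replicate 1, the same library. Grem1 was at 7.02 CPM in chow control replicate 1.

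Of the 28 pathway genes named above, 14 were called in edgeR's test of the interaction (log2, the effect on chow subtracted from that on the high-fat diet, with adjusted p). Most of the 28 were named for their change on chow, which is part of the interaction, so these values describe them and are no independent evidence of a difference between the diets. Among all genes 10.4% were called in this test, 478 higher and 1111 lower (281 and 1200 with upper-quartile scaling). Acute-phase genes gave -2.02 for Lcn2 (3.81e-06), -2.05 for Il6 (1.63e-05), -0.70 for Socs3 (0.0178) and 0.49 for Stat3 (0.00431). Chemokines gave -1.81 for Cxcl1 (7.6e-09) and -2.42 for Cxcl2 (0.000355), and EGF genes -2.20 for Ereg (1.19e-10) and -1.50 for Errfi1 (6.69e-07). Itga9 was at 1.38 (0.000938). Fst at -1.65 (0.0317) lost this call when any of 8 single libraries was left out, with adjusted p up to 0.076, without chow control replicate 2, and without the 3 high-fat libraries that stood apart (0.0553). Fibroblast genes gave -2.10 for Ccl2 (7.6e-09), -2.16 for Lif (1.24e-08), -2.15 for Il11 (5.41e-07) and -2.27 for Il1rl1 (1.29e-06).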

How the results depend on the processing

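All 10 genes lay above the chow controls in every chow renin library in CPM, TPM, deposited matrix values, unscaled CPM and upper-quartile CPM. Leaving libraries out cannot make separate groups overlap, so it is no check of this count. The log2 ratio moved by more than 1 SD to 2.25 for Saa3 (TPM or unscaled CPM), 2.23 for Ptgs2 and 1.82 for Ptges (TPM), and 2.16 (TPM) or 2.06 (deposited matrix) for Fosl1. Of the members, 1 was called on the high-fat diet, and 0 with no filter on low counts, with only the groups compared, with a clock gene score as covariate, and without high-fat control replicates 5 and 6 and high-fat renin replicate 1 (0 to 1 with single libraries left out). For Saa3 the adjusted p was then 0.0631, 0.114, 0.74 and 0.236. Tnfsf11 turned from -0.14 to 0.00 under a replicate block, 0.04 without high-fat control replicate 6 and 0.00 without high-fat renin replicate 5 (-0.57 to 0.04 with 1 library left out), and Fosl1 from 0.20 to -0.18 with the clock covariate.

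With renin on the high-fat diet 1696 genes were called, but 549 with only the groups compared, 0 with the clock covariate (cause not tested), 387 without the 3 high-fat libraries, and 696 to 2394 with 1 library left out (696, 934 and 784 without high-fat renin replicate 1, 2 or 5). For high-fat control against chow control the count of 10 became 117 by DESeq2, 5 with only the groups compared, 0 under a replicate block, 6 after thinning to the smallest total, 16 with the clock covariate, 19 without chow renin replicates 1 and 2, 0 without the 3 high-fat libraries, and 0 to 57 with 1 left out. In chow renin against chow control 2048 genes were called (1512 to 2359 with 1 left out), and in the interaction 1589 (1220 to 1951). Upper-quartile scaling gave 819 higher and 911 lower against 923 and 773 on the high-fat diet. Under the replicate block 1 member was still called and the counts were 1578, 2246 and 1618, but same-numbered libraries did not deviate together throughout. The alternatives that leave out chow renin replicates 1 and 2, or the 3 high-fat libraries, were chosen after seeing the data.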

Other observations

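Over all genes tested, the ones whose deviations from the group means were most like those of Areg and Tnfsf11 were Plau (r = 0.90 with Areg and 0.83 with Tnfsf11, 21 libraries), which encodes the urokinase plasminogen activator, and the potassium channel gene Kcnk10 (0.89 and 0.83), followed by the collagenase gene Mmp13 (0.88 and 0.83) and the lipase gene Lipg (0.86 and 0.79). They were picked after their values were seen and are a description. Plau had 30.4 and 32.5 CPM in chow renin replicates 1 and 2, and 50.4, 49.9, 53.8 and 53.3 in replicates 3 to 6. In high-fat control it had 9.15, 11.2, 11.3, 10.3, 15.1 and 18.2 CPM, and in high-fat renin 15.2, 11.6, 9.12, 11 and 11.3. Kcnk10 had 4.97 and 5.03 CPM in chow renin replicates 1 and 2 against 12.6, 12.4, 9.5 and 10.7 in the others. Its highest high-fat control libraries were replicates 5 and 6, at 2.43 and 2.5 CPM, and its highest high-fat renin library was replicate 1, at 1.6 CPM. A batch, date or litter of these libraries is not given in the sources used here.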
